A study of Mus musculus with 24 samples.

Results

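The 9 genes followed here make, export and break down heme: Alas1, Alad, Uros, Urod, Cpox, Ppox and Fech of the synthesis pathway, the exporter gene Flvcr1 and the heme oxygenase gene Hmox1. They were chosen by name, with earlier results of these data known. All 9 were found, 1 row each, among the 55487 genes of the count table. Bulk RNA-seq had been made from innate lymphoid cells sorted from the small intestine lamina propria of mice aged 8 to 12 weeks. The 4 sorted populations carry the labels ILC1, NKp46, CCR6 and DN, and the study's title places them among ILC1 and subsets of ILC3. Each population was taken from Vav1-Cre mice with floxed Nr1d1 and Nr1d2 (DKO) and from fl/fl littermates (WT), with 3 libraries per group and 24 in all. Vav1-Cre acts across blood cells, so the deletion was not limited to innate lymphoid cells, and whether the WT littermates carried the Cre is not given in the sources used here. Nothing states whether libraries of 1 group came from separate animals or pools, so every p-value below measures the spread between these libraries. Within a genotype the 4 populations share their replicate numbers, and whether libraries of 1 number share an animal is not given either. The comparison asked which of these genes depend on the 2 nuclear receptors REV-ERB alpha and REV-ERB beta, encoded by Nr1d1 and Nr1d2.

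Heme synthesis begins in mitochondria, where Alas1 encodes the enzyme of the first and rate-limiting step outside the erythroid lineage. Alad, Uros and Urod encode enzymes of the cytosolic steps, Cpox and Ppox those of the mitochondrial oxidations, and Fech the ferrochelatase that inserts iron. Flvcr1 exports heme, and Hmox1 encodes the inducible enzyme that opens the heme ring and releases iron, carbon monoxide and biliverdin. Heme is also the ligand of the REV-ERB receptors, which repress genes through response elements holding the half-site AGGTCA and are part of the circadian clock. REV-ERB alpha has been described as lowering Alas1 by repressing PGC-1alpha, a coactivator of that gene.

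Upstream sequence was examined for this half-site and for the E-box CACGTG, because the deleted receptors bind the one and the clock activators the other. RefSeq start sites (GRCm38.p6) were used for 7 of the 9 genes, giving 10 windows of 250 bases before a start. Hmox1 and Fech were not examined, so the counts below do not cover every heme gene and say nothing about these genes. The half-site, searched on both strands, lay in none of the 10 windows, against 14.0% of all 32851 windows of this length. The E-box, which reads the same on both strands, lay in 4 of the 10 windows, those of Alad, Uros and Urod, against 6.02% of all windows, or in 3 of 7 genes against 6.86% of all genes. A match or its absence describes these letters in these windows and nothing about binding. The window of Cpox, the synthesis gene that changed with genotype, is shown first (chr16:58669958-58670207, plus strand), then those of Alad (chr4:62519910-62520159, minus strand) and Urod (chr4:116994414-116994663, minus strand), whose E-boxes, in capitals, begin 28 and 49 bases before the start.
Cpox: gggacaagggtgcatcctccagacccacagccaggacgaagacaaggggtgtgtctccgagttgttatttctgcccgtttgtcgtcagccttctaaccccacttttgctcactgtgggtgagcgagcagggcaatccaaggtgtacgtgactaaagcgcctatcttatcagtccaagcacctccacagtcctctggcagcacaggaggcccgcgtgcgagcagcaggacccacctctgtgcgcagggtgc
Alad: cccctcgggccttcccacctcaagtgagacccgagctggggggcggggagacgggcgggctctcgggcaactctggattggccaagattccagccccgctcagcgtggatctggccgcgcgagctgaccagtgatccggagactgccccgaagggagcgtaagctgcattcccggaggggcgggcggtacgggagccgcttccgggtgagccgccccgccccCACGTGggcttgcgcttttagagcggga
Urod: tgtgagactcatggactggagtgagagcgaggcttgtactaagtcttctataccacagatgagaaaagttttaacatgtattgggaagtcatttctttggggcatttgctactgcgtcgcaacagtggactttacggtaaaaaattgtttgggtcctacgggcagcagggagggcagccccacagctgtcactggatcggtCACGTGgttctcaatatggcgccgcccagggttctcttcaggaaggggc

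Depth ranged from 12763228 to 84395154 gene counts a library. In 23 of them 91.6% to 94.9% of counts fell on protein-coding genes, and WT ILC1 library 2, the smallest, stood apart with 84.1%. That library gave the lowest level of the 24 for 6 of the 9 heme genes and the highest for Cpox, so results resting on it are given with and without it. Levels are given as CPM, the deposited counts divided by the library total, after scaling of that total by edgeR's TMM factors, and multiplied by 1000000. In WT NKp46 and WT CCR6 the sort markers Ncr1 and Ccr6 followed the labels. Ncr1, the gene of NKp46, lay at 735 to 937 CPM in WT NKp46 and 5.95 to 12.1 CPM in WT CCR6, and Ccr6 at 1306 to 1476 CPM in WT CCR6 and 3.98 to 12.3 CPM in WT NKp46. The targeted genes did not fall: counts over the whole gene were higher in DKO, by a mean log2 fold change of 1.63 ± 0.10 (SE) for Nr1d1 and 1.52 ± 0.18 for Nr1d2, and such counts do not separate deleted from intact transcripts. Npas2, a clock gene repressed by REV-ERB, rose by 2.56 ± 0.24. In bulk samples, fewer cells of a type and less RNA per cell cannot be told apart.

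Of the 9 heme genes, Cpox and Hmox1 fell in DKO when the 4 populations were averaged, and the other 7 did not pass the test in either direction. For each gene the log2 fold change of DKO against WT was averaged over the populations with equal weight and tested with edgeR's quasi-likelihood test on all 24 libraries. P-values were adjusted by Benjamini-Hochberg over 21286 genes, and a gene was called at an adjusted p under 0.05. Of all genes tested, 5.99% were called lower and 4.81% higher. Among the heme genes 2 of 9 were called lower and 0 higher, and DESeq2 and limma voom called 0 higher as well. The heme genes were chosen with earlier results of these data known, so this count cannot be read as an independent test. An unadjusted p under 0.05 was found for 3 heme genes, against 4725 of all 21286 genes. The median log2 fold change was 0.10 over the 9 genes and -0.02 over all genes.

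**Figure D1:**
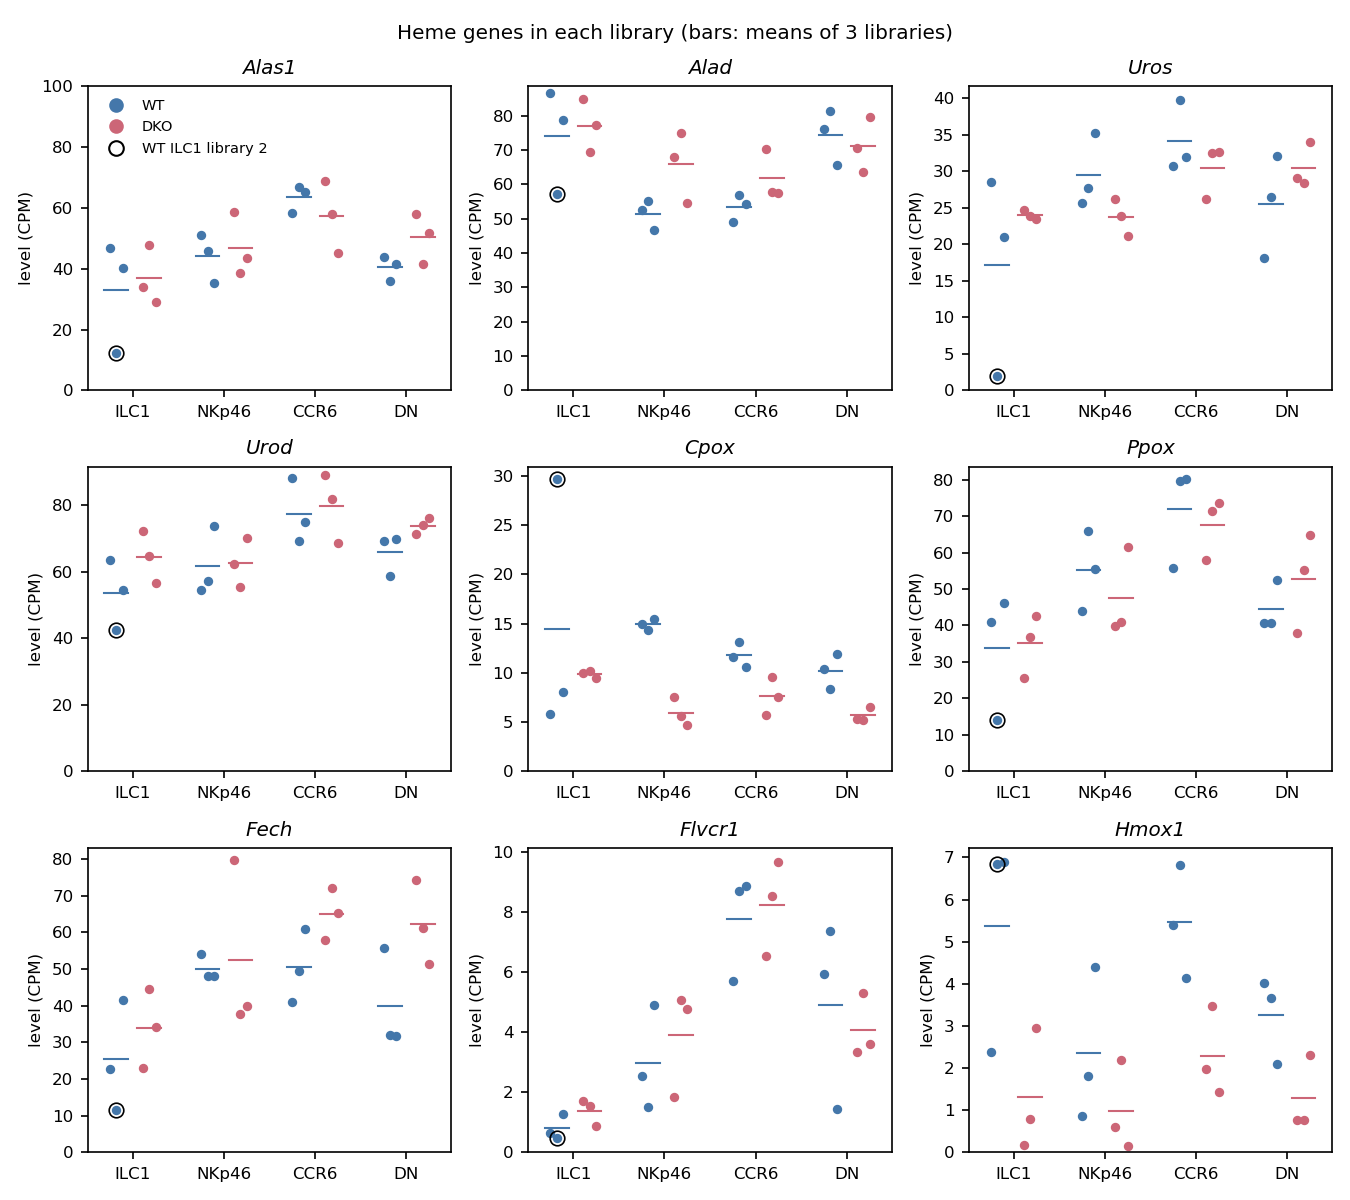
Level of each of the 9 heme genes in CPM (y axis from 0) in all 24 libraries, by population (x axis) and genotype; points are libraries, bars are means of 3, and the ringed point is WT ILC1 library 2. In the NKp46, CCR6 and DN populations every DKO point of Cpox lies below every WT point, and in ILC1 the ringed library at 29.7 CPM lies far above the other 2 WT points.

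**Figure D2:**
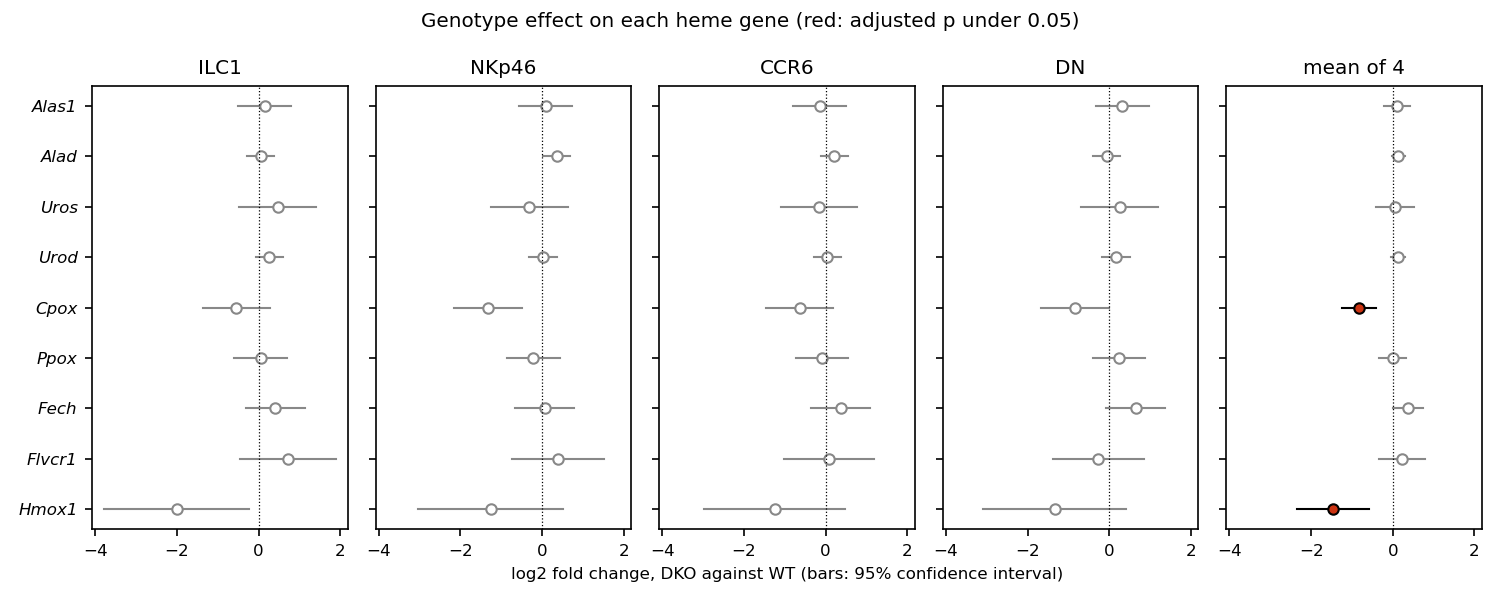
Log2 fold change of DKO against WT (x axis) for the 9 heme genes (rows) in each population and as the mean of the 4, with 95% confidence intervals from edgeR's fit; filled red points passed an adjusted p of 0.05. The mean effects of Cpox (-0.83) and Hmox1 (-1.46) are filled, and no single population gives a filled point.

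Cpox, which encodes coproporphyrinogen oxidase, had the clearest genotype difference among the synthesis genes. Its WT NKp46 libraries gave 14.9, 14.4 and 15.5 CPM, and the DKO NKp46 libraries 7.55, 5.62 and 4.72 CPM. In CCR6 the WT libraries gave 11.6, 13.1 and 10.6 CPM, and the DKO libraries 5.68, 9.62 and 7.54 CPM. In DN the WT libraries gave 10.4, 8.36 and 11.9 CPM, and the DKO libraries 5.33, 5.25 and 6.53 CPM. In these 3 populations no DKO library reached the lowest WT library. ILC1 differed: the WT libraries gave 5.80, 29.7 and 8.05 CPM, and the DKO libraries, at 9.96, 10.2 and 9.45 CPM, fell between them.

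Over the 4 populations Cpox fell by 0.83 ± 0.20 (SE) on the log2 scale (adjusted p = 0.0067), a 1.78-fold lower level with a 95% confidence interval of 1.34 to 2.37. By population the log2 fold change was -1.32 ± 0.40 for NKp46 (adjusted p = 0.069), -0.84 ± 0.40 for DN (adjusted p = 0.40), -0.63 ± 0.39 for CCR6 (adjusted p = 0.59) and -0.54 ± 0.40 for ILC1 (adjusted p = 0.59). No single population passed the threshold with all libraries. The largest of these, in NKp46, corresponds to a mean of 14.9 ± 0.574 CPM (SD, n = 3) in WT and 5.96 ± 1.44 CPM in DKO.

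Markers of the cells themselves and of other cells moved with genotype in the same libraries. The summed level of 9 ILC1 and ILC3 markers did not overlap between genotypes in NKp46 (7474 to 7669 CPM in WT, 3494 to 3859 CPM in DKO), CCR6 (9343 to 10759 and 5404 to 5925 CPM) or DN (6057 to 7231 and 4364 to 4415 CPM). In ILC1 the WT libraries gave 8970, 5543 and 8914 CPM, and the DKO libraries 5935.6 to 6576.5 CPM. The ILC1 groups overlapped only through WT ILC1 library 2, which lay below all DKO ILC1 libraries. In the mean effect 7 of the 9 ILC1 and ILC3 markers fell, among them Il23r, which encodes a subunit of the interleukin-23 receptor, by 1.23 ± 0.10 on the log2 scale (adjusted p = 6e-09). The summed level of 9 T cell markers was higher in DKO in CCR6 (420 to 556 CPM in WT, 2333 to 2442 CPM in DKO) and NKp46 (172 to 239 and 513 to 753 CPM). It was lower in ILC1 (439 to 562 and 347 to 432 CPM). In DN it overlapped and was high in both genotypes (2249 to 2475 and 2136 to 2479 CPM). Most of the rise in CCR6 was 1 gene, Lat, an adaptor of T cell receptor signalling, at 252 ± 40.2 CPM in WT CCR6 and 2151 ± 56.2 CPM in DKO CCR6. The T cell receptor complex gene Cd3e lay at 82.9 ± 12.8 and 84.3 ± 10.9 CPM there. In the mean effect Lat was the 1 of the 9 that rose, and 4 fell (Cd3d, Cd3g, Trdc and Cd8a). Summed B and plasma cell markers were higher in DKO in ILC1 (422 to 682 CPM in WT, 715 to 1132 CPM in DKO). In NKp46 they were higher as well (190 to 275 and 326 to 792 CPM). In CCR6 they were lower (144 to 722 and 76.7 to 140 CPM), and in DN they overlapped. Summed erythroid markers were lower in DKO in CCR6 (0.589 to 1.20 CPM in WT, 0.313 to 0.481 CPM in DKO). They were also lower in DN (5.91 to 8.05 and 1.15 to 1.48 CPM). Summed epithelial markers were higher in DKO in CCR6 (9.38 to 11.9 and 13.9 to 19.1 CPM). They were also higher in DN (4.61 to 9.03 and 13.3 to 18.6 CPM). Both sums overlapped in ILC1 and NKp46. The part of all these markers in the Cpox difference was not tested.

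The ILC1 value of Cpox turned on WT ILC1 library 2, which held the highest Cpox level of the 24. Leaving out that library raises the ILC1 value by construction. The adjusted p-values of the 2 differences below, without that library, are therefore not independent of the choice to leave it out. Without library 2 the mean effect stayed called at -0.57 ± 0.12 (adjusted p = 0.0026), and Cpox was also called in NKp46 alone (-1.33 ± 0.24, adjusted p = 0.0014). In NKp46 it was called as well without WT ILC1 library 1 (adjusted p = 0.025) or library 3 (adjusted p = 0.044). In ILC1 the log2 fold change without library 2 became 0.51 ± 0.27 (adjusted p = 0.48), with all 3 DKO libraries above the remaining WT libraries. The difference between the ILC1 effect and the mean effect in the other 3 populations was then 1.44 ± 0.31 (adjusted p = 0.025), in a fit where 0.796% of all genes were called for that difference. An F test for unequal genotype effects over the 4 populations gave an adjusted p of 0.035 for Cpox, with 2.39% of all genes called. With all 24 libraries neither difference passed for Cpox (adjusted p = 0.82 and 0.87) or for any other heme gene, against 0.803% and 1.37% of all genes. DESeq2 and limma voom also called 0. No heme gene had an unadjusted p under 0.05 for either, against 2442 and 2547 of all 21286 genes.

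**Figure D3:**
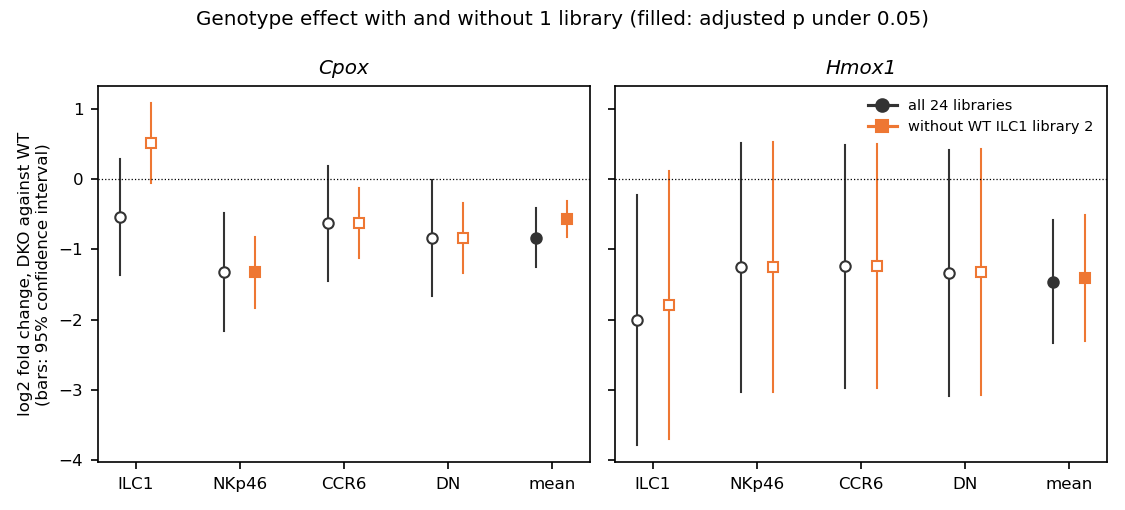
Log2 fold change of DKO against WT (y axis) with 95% confidence intervals for Cpox and Hmox1, by population and as the mean of the 4, from all 24 libraries (circles) and without WT ILC1 library 2 (squares); filled symbols passed an adjusted p of 0.05. For Cpox the ILC1 value moves from -0.54 to 0.51 and the NKp46 value becomes called, while the Hmox1 values move little. The library left out held the highest Cpox level of the 24.

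Exons of Cpox overlap those of Gpr15, a gene on the opposite strand, by 204 bases in GENCODE M21, and the strand setting of the counting is not given in the sources used here. Gpr15, which encodes a chemoattractant receptor of lymphocytes, fell as well, with a mean log2 fold change of -3.88 ± 0.90 (adjusted p = 0.006). Its levels were low: 1.06 CPM in WT NKp46 and 0 counts in all DKO NKp46 libraries. The Cpox difference, WT minus DKO, was 8.96 CPM in NKp46, 4.18 CPM in CCR6, 4.52 CPM in DN and 4.64 CPM in ILC1. The ILC1 value rested on WT ILC1 library 2. Without it the WT ILC1 mean was 6.93 CPM, below the DKO ILC1 mean of 9.87 CPM. The WT level of Gpr15 was 2.75 CPM in CCR6, 1.3 CPM in DN and 1.77 CPM in ILC1. The part of Gpr15 reads in the Cpox values was not tested.

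Hmox1, the inducible heme oxygenase, was low in all libraries, with 4 to 580 counts. The WT ILC1 libraries gave 2.39, 6.83 and 6.89 CPM, and the DKO ILC1 libraries 0.179, 0.784 and 2.95 CPM. In NKp46 the WT libraries gave 0.858, 1.81 and 4.41 CPM and the DKO libraries 0.600, 2.18 and 0.157 CPM. In CCR6 the WT libraries gave 5.40, 6.83 and 4.14 CPM and the DKO libraries 1.98, 3.48 and 1.44 CPM. The groups did not overlap in CCR6 and overlapped in the other populations. In DN the WT libraries gave 4.03, 3.65 and 2.09 CPM and the DKO libraries 0.771, 0.760 and 2.31 CPM.

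The mean effect on Hmox1 was -1.46 ± 0.42 (SE) on the log2 scale (adjusted p = 0.026), a 2.75-fold lower level with a 95% confidence interval of 1.5 to 5.06. By population it was -2.01 ± 0.86 for ILC1 (adjusted p = 0.31), -1.26 ± 0.85 for NKp46 (adjusted p = 0.51), -1.34 ± 0.84 for DN (adjusted p = 0.60) and -1.25 ± 0.83 for CCR6 (adjusted p = 0.63). The call was close to the threshold. It was lost, with adjusted p between 0.051 and 0.070 and values of -1.43 to -1.25, when any 1 of 8 libraries was left out: DKO ILC1 2, WT NKp46 3, DKO NKp46 1, WT CCR6 2, DKO CCR6 1 or 3, or DKO DN 1 or 2.

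Macrophages express Hmox1 strongly, and 15 macrophage and monocyte markers were summed in each library. In WT ILC1 the sums were 201, 595 and 103 CPM, and in DKO ILC1 72.8, 65.8 and 39.2 CPM, so that the groups did not overlap. In the other populations the WT sums were below those of WT ILC1, and WT and DKO overlapped in NKp46 and DN, with 13.8 to 67.5 CPM in WT NKp46, 21.5 to 46.5 CPM in DKO NKp46, 9.72 to 42.0 CPM in WT DN and 24.3 to 37.3 CPM in DKO DN. In CCR6 the WT libraries lay at 21.4 to 48.8 CPM and the DKO libraries at 19.7 to 21.2 CPM. Fcgr1 was at 0 in all WT ILC1 libraries and Cd163 in all DKO ILC1 libraries. Of 10 dissociation stress genes, 4 fell in the mean effect (Hspa1a by 2.36, Hspa1b by 2.76, Atf3 by 0.62 and Dnajb1 by 0.37 on the log2 scale; adjusted p = 0.00056, 0.00047, 0.0066 and 0.0021) and Fosb rose by 0.74 (adjusted p = 1.5e-05). Their summed level overlapped between WT and DKO in every population, at 19901 to 26504 against 21760 to 27086 CPM in CCR6, for example. The part of either in the Hmox1 difference was not tested.

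Alas1, the rate-limiting enzyme gene and the synthesis gene described as a REV-ERB target elsewhere, did not pass the test. Its WT and DKO levels overlapped in every population: 12.3 to 46.7 against 29.1 to 47.9 CPM in ILC1, 35.4 to 51.0 against 38.7 to 58.6 CPM in NKp46, 58.2 to 66.9 against 45.0 to 68.8 CPM in CCR6, and 35.9 to 43.8 against 41.6 to 58.0 CPM in DN. The mean log2 fold change was 0.10 ± 0.15 (adjusted p = 0.79), with a 95% confidence interval of -0.22 to 0.43. A miss of the threshold does not show that the level was equal, and the interval leaves room for a change of that size either way. An opposite-strand gene, 4930500F10Rik, overlaps 465 bases of Alas1 exons.

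None of the genes of the cytosolic steps was called. Alad, which encodes the dehydratase of the second step, had a mean log2 fold change of 0.14 ± 0.08 (adjusted p = 0.32). Its largest difference was in NKp46, at 0.36 ± 0.16 (unadjusted p = 0.035, adjusted p = 0.26), with 46.7 to 55.1 CPM in the WT libraries and 54.7 to 74.9 CPM in the DKO libraries. In CCR6 its DKO libraries, at 57.6 to 70.3 CPM, lay above all WT libraries, at 49.1 to 57.0 CPM, although the difference of 0.21 ± 0.16 did not pass (adjusted p = 0.70). Urod, the decarboxylase gene, had a mean log2 fold change of 0.12 ± 0.08 (adjusted p = 0.41). In DN its DKO libraries, at 71.4 to 76.2 CPM, lay above all WT libraries, at 58.7 to 69.9 CPM (0.16 ± 0.16, adjusted p = 0.82). Uros, which closes the porphyrin ring, had a mean log2 fold change of 0.06 ± 0.23 (adjusted p = 0.95, 95% confidence interval -0.41 to 0.53), and its DKO libraries spanned 21.1 to 33.9 CPM. Its WT libraries spanned 18.2 to 39.7 CPM apart from WT ILC1 library 2, at 1.93 CPM from 24 counts.

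The last mitochondrial steps also gave no call. Ppox, the protoporphyrinogen oxidase gene, had a mean log2 fold change of -0.00 ± 0.15 (adjusted p = 1.0, 95% confidence interval -0.33 to 0.32), and its exons share 791 bases with the opposite-strand gene B4galt3. Fech had the largest positive mean among the synthesis genes, 0.37 ± 0.17 (unadjusted p = 0.045, adjusted p = 0.21). Its DN libraries gave 55.7, 32.0 and 31.7 CPM in WT and 74.1, 61.2 and 51.3 CPM in DKO, with 1 WT library inside the DKO range. Without WT ILC1 library 3 the mean effect on Fech was 0.52 (adjusted p = 0.036). Flvcr1, the exporter gene, had a mean log2 fold change of 0.23 ± 0.27 (adjusted p = 0.71), and its exons share 809 bases with the opposite-strand gene A230020J21Rik.

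Within single populations 0 of 9 heme genes were called, while of all genes tested 1.06% were called for ILC1, 4.16% for NKp46, 3.97% for CCR6 and 2.83% for DN. At an unadjusted p under 0.05 the numbers of heme genes were 1, 2, 0 and 1: Hmox1 in ILC1, Alad and Cpox in NKp46, and Cpox in DN. Of all 21286 genes, 2874, 3426, 2803 and 2596 had such a p in ILC1, NKp46, CCR6 and DN. DESeq2 and limma voom each called 1 heme gene in NKp46, Cpox, and 0 in the other 3.

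The WT libraries show how the pathway differs between the populations without the deletion. A test of any difference among the 4 WT populations called 2 of 9 heme genes, Flvcr1 (adjusted p = 0.0024) and Alad (adjusted p = 0.017), against 19.1% of all genes, a share close to theirs. Alad's call was lost without WT NKp46 library 3 or WT DN library 2 (adjusted p = 0.055 for each). The call was gained for Cpox without WT ILC1 library 2 (adjusted p = 0.036), for Alas1 or Urod without WT ILC1 library 1 (adjusted p = 0.045 and 0.038), and for Fech or Ppox without WT ILC1 library 3 (adjusted p = 0.014 and 0.033).

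Flvcr1 had the widest range among the WT populations. Its levels were 0.645, 0.482 and 1.27 CPM in WT ILC1, 2.54, 1.5 and 4.90 CPM in WT NKp46, 5.92, 7.36 and 1.44 CPM in WT DN, and 5.70, 8.69 and 8.86 CPM in WT CCR6. All ILC1 libraries lay below all libraries of the other populations, NKp46 lay below CCR6, and DN overlapped both. ILC1 was lower than CCR6 by a log2 fold change of -3.23 ± 0.59 (adjusted p = 3.8e-04) and lower than DN by -2.57 ± 0.58 (adjusted p = 0.0064). Without WT ILC1 library 2 these were -3.00 ± 0.66 (adjusted p = 0.0026) and -2.34 ± 0.64 (adjusted p = 0.030). Against NKp46 the value was -1.85 ± 0.57 (adjusted p = 0.040), and that call was lost, with adjusted p of 0.050 to 0.21, without WT ILC1 1 or 2, WT NKp46 1 or 3, WT CCR6 2 or 3, any DKO CCR6 library, or DKO DN 1 or 3. The 6 contrasts between WT populations share libraries.

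**Figure D4:**
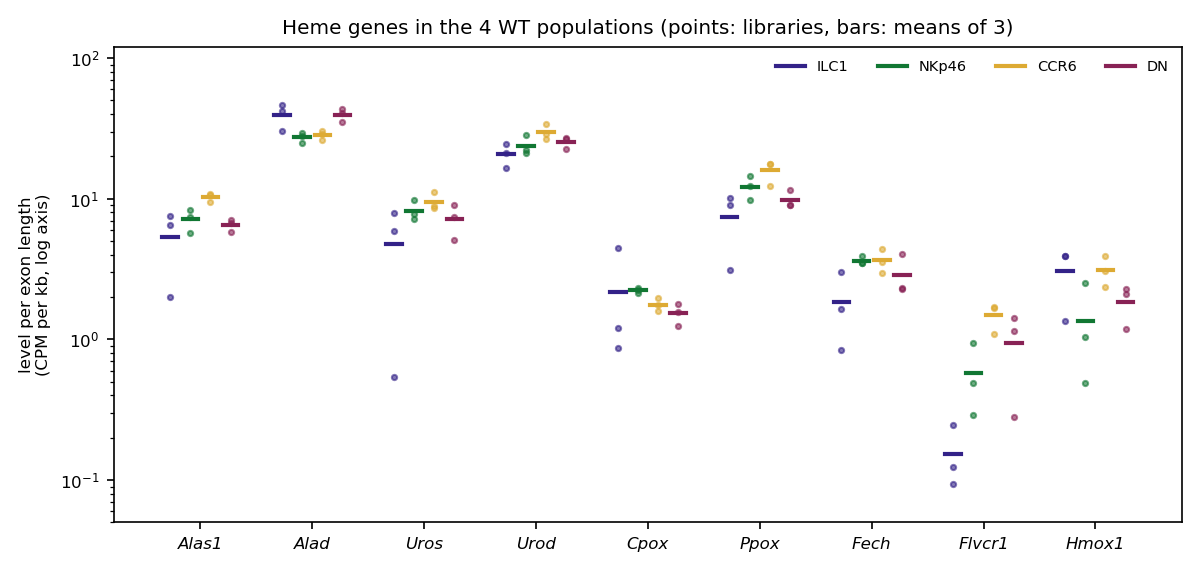
Level of the 9 heme genes in the 4 WT populations in CPM per kb of exon (y axis, logarithmic); points are libraries and bars are means of 3. Flvcr1 is lowest in ILC1 and highest in CCR6, and the low ILC1 points of Alas1, Uros, Ppox and Fech are WT ILC1 library 2.

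WT ILC1 had lower levels than WT CCR6 of 4 of the 9 genes and a higher level of 1, against 9.99% and 9.33% of all genes. The lower genes were Flvcr1, Ppox (-1.08 ± 0.31, adjusted p = 0.017), Urod (-0.53 ± 0.16, adjusted p = 0.024) and Alas1 (-0.93 ± 0.31, adjusted p = 0.039). The low levels rested in part on WT ILC1 library 2. Alas1 lay at 12.3 CPM there and at 46.7 and 40.1 CPM in the other WT ILC1 libraries, and Ppox at 14.1 against 41.1 and 46.0 CPM. Without that library Flvcr1 was the 1 gene called lower, against 8.29% of all genes, and Ppox (-0.72 ± 0.26, adjusted p = 0.060), Urod (-0.39 ± 0.16, adjusted p = 0.11) and Alas1 (-0.54 ± 0.23, adjusted p = 0.12) were not. The Ppox call was also lost without WT CCR6 2 or 3 (adjusted p = 0.063 and 0.066), and the Urod call without WT CCR6 1 or 3 (adjusted p = 0.11 and 0.051). That of Alas1 was lost, at adjusted p of 0.050 to 0.12, without any 1 of WT ILC1 2, DKO ILC1 1, the 3 WT CCR6 libraries, DKO CCR6 2, WT DN 1 or 2, or DKO DN 1 or 3. Uros and Fech were called lower in ILC1 when WT ILC1 1 (Uros, adjusted p = 0.033), or WT ILC1 3 or DKO NKp46 1 (Fech, adjusted p = 0.0034 and 0.040), was left out.

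Alad ran the other way. Its WT ILC1 libraries, at 86.7, 57.2 and 78.8 CPM, and WT DN libraries, at 76.1, 81.3 and 65.6 CPM, lay above the WT NKp46 libraries, at 52.4, 55.1 and 46.7 CPM, and the WT CCR6 libraries, at 49.1, 57.0 and 54.3 CPM. ILC1 was higher than NKp46 by 0.53 ± 0.16 on the log2 scale (adjusted p = 0.034) and higher than CCR6 by 0.48 ± 0.16 (adjusted p = 0.039). Against NKp46, ILC1 was thus higher for 1 gene, Alad, and lower for 1, Flvcr1, where 5.13% and 5.6% of all genes were called. Both Alad calls were close to the threshold. The one against CCR6 was lost (adjusted p 0.054 to 0.20) without any 1 library except WT ILC1 2, WT NKp46 3, DKO NKp46 3 or DKO CCR6 3. The one against NKp46 was lost (adjusted p 0.050 to 0.14) without any 1 library except WT ILC1 2, DKO ILC1 1, DKO NKp46 3, DKO CCR6 1 or 3, or a WT CCR6 library. Without WT ILC1 library 2 both calls were stronger, at 0.69 ± 0.15 (adjusted p = 0.0038) and 0.64 ± 0.15 (adjusted p = 0.0041), and DN was called above NKp46 (0.54, adjusted p = 0.023) and CCR6 below DN (-0.48, adjusted p = 0.029).

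WT ILC1 against WT DN gave 1 of 9 genes lower, Flvcr1, against 4.73% of all genes. Fech was called there as well, and against NKp46, without WT ILC1 library 3 (-1.21 and -1.54, adjusted p = 0.034 and 0.0056). Between NKp46, CCR6 and DN no heme gene was called, against 6.23% of all genes for CCR6 against NKp46, 2.97% for DN against NKp46 and 5.84% for CCR6 against DN. The heme genes at an unadjusted p under 0.05 numbered 1, 1 and 3, against 3522, 2862 and 3666 of all 21286 genes. DESeq2 called 0, 1 and 1 heme genes, and limma voom 1, 0 and 1. Cpox in WT NKp46, at 14.4 to 15.5 CPM, lay above all WT CCR6 and WT DN libraries, and the differences did not pass (adjusted p = 0.79 and 0.63). Without WT ILC1 library 2, which held the highest Cpox level, Cpox was lower in WT ILC1 than in WT NKp46 by a log2 fold change of -1.10 ± 0.28 (adjusted p = 0.014). Hmox1 overlapped between all WT populations except that WT CCR6 lay above WT DN, with no call (adjusted p = 0.75).

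Levels of different genes were compared per exon length, since longer transcripts collect more counts. Averaged over the 24 libraries, Alad reached 35.4 and Urod 26.0 CPM per kb, followed by Ppox at 11.3, Alas1 at 7.54, Uros at 7.51 and Fech at 3.43 CPM per kb. Hmox1 at 1.59, Cpox at 1.51 and Flvcr1 at 0.821 CPM per kb were lowest. With the longest transcript as the length, Urod came first at 45.3 and Alad second at 37.4 CPM per kb, and Alas1, at 13.7 CPM per kb, passed Ppox. Cpox, at 3.25 CPM per kb by that length, remained the lowest of the 7 synthesis genes. The erythroid synthase gene Alas2 was at most 1.93 CPM in any library, and 10 erythroid markers summed to at most 28.9 CPM.

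Genes around the pathway were read from 5 lists, whose choice was made with earlier results of these data known. The counts below stand against 4.81% of all genes called higher and 5.99% called lower in the mean effect. Among 12 further genes of heme synthesis and its mitochondrial transport, 1 rose in the mean effect and 0 fell (DESeq2 and limma voom also 0), with a list median of -0.08 against -0.02 over all genes. It was Slc25a39, a mitochondrial glutathione carrier gene, which rose by 0.40 ± 0.09 on the log2 scale (adjusted p = 0.0046). Of 12 tested genes of heme uptake, carriage and breakdown, 0 rose and 1 fell, the heme-binding Pgrmc1 (-0.30 ± 0.08, adjusted p = 0.014), with a median of -0.24. Blvra, the biliverdin reductase downstream of Hmox1, rose in CCR6 (0.53 ± 0.14, adjusted p = 0.034).

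Of 17 genes of heme sensing and of the control of Alas1 and Hmox1, 3 rose and 3 fell in the mean effect, with a median of -0.06. Those that rose were the targeted genes Nr1d1 and Nr1d2, and Npas2. Bach1 encodes the heme-binding repressor of Hmox1, and it fell by 0.62 ± 0.18 on the log2 scale (adjusted p = 0.025). Its relative Bach2 fell by 1.27 ± 0.23 (adjusted p = 0.00061) and Maff, a small MAF partner, by 0.72 ± 0.13 (adjusted p = 0.00045). In single populations Bach1 was not called, and Bach2 was called lower in DN alone. Bach1 lay at 39.0 to 41.1 CPM in WT CCR6 and 12.2 to 27.8 CPM in DKO CCR6, without a call there. Nfe2l2, the gene of NRF2, fell in CCR6 (-0.50 ± 0.12, adjusted p = 0.016). Hmox1 and the gene of its repressor were thus both lower in the mean effect.

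Of 13 tested NRF2 and BACH1 target genes other than Hmox1, 2 rose (Osgin1 and Prdx1) and 3 fell, with a median of -0.09. The glutathione synthesis gene Gclc fell by 0.66 ± 0.15 (adjusted p = 0.0057), the sulfiredoxin gene Srxn1 by 0.59 ± 0.14 (adjusted p = 0.0056) and the transporter gene Abcc1 by 0.36 ± 0.10 (adjusted p = 0.019). Prdx1, a peroxiredoxin, rose by 0.49 ± 0.08 (adjusted p = 3e-04) and Osgin1 by 0.52 ± 0.08 (adjusted p = 0.00016), so the list moved in both directions. Within single populations Osgin1 was called higher in NKp46 and CCR6, and Prdx1 in DN. Gclm was called lower in NKp46 and Abcc1 in CCR6. Of 13 iron genes, the importer Slc11a2 rose by 0.37 ± 0.07 (adjusted p = 0.0014) and Fbxl5, an iron-sensing ubiquitin ligase subunit, fell by 0.39 ± 0.10 (adjusted p = 0.016), with a median of -0.03.

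**Figure D5:**
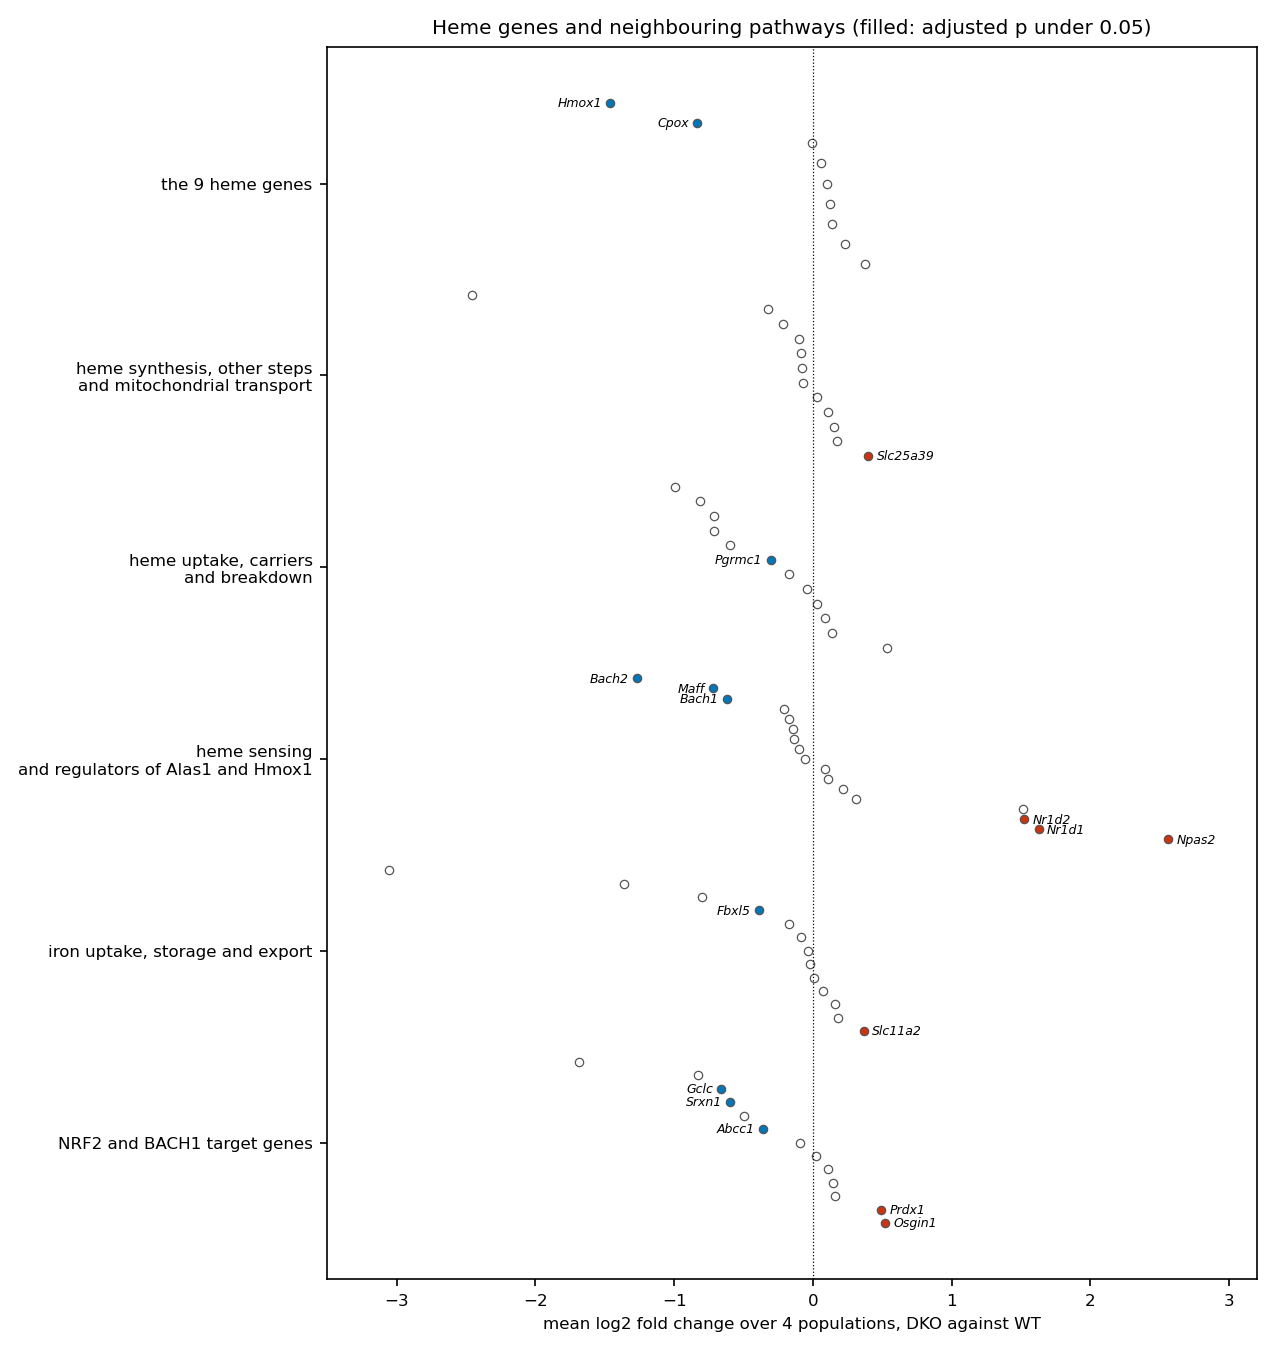
Mean log2 fold change of DKO against WT over the 4 populations (x axis) for the 9 heme genes and 5 lists of neighbouring genes (rows), 1 point a gene; filled points passed an adjusted p of 0.05, red higher and blue lower. Hmox1 and Cpox are the filled heme genes, both below 0, beside Bach1 at -0.62 and Npas2 at 2.56.

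The genes most like a heme gene across the 24 libraries were taken by Pearson's correlation of log2 CPM among tested genes with a mean of at least 5 CPM. The libraries share groups and depth, so these values are descriptions without a test. Cpox was closest to Zbtb42 (r = 0.86, Spearman's rho = 0.82; r = 0.82 without WT ILC1 library 2) and then to Clint1 (r = 0.84) and Mogs (r = 0.81). Hmox1 was closest to Cyfip2, Pygl and Pde8a (r = 0.71, 0.70 and 0.70), Fech to Ddb1, Bcas3 and Coro1c (r = 0.90, 0.88 and 0.88), and Alas1 to Stt3a (r = 0.94), with Dpf2 close behind (r = 0.92). With group means removed, Cpox was closest to Rab2a (r = 0.91), and without WT ILC1 library 2 that r was 0.53. Fech was then closest to Pik3cg (r = 0.94; 0.92 without that library), Alas1 to Septin7 (r = 0.95; 0.85) and Hmox1 to Jrk (r = 0.77; 0.77).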

How the data were processed

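Bulk RNA-seq started from 10 ng of RNA a library, with a low-input SMARTer kit and 12 to 15 amplification cycles, per the labels' protocols; that kit's reads carry no stated strand and no molecular identifiers. The deposited table holds raw counts per gene for the 24 libraries, made by the authors; the submitters' processing notes name mm10, STAR 2.7.9a, featureCounts 2.0.3, Salmon 1.5.2 and DESeq2 without their roles, and the annotation release is not given in the sources used here. Of 55774 rows, 455 belonged to 168 gene IDs listed several times with equal counts, and each ID was kept once. The tests used R 4.3.3, edgeR 4.0.16 (TMM factors, filterByExpr by group, robust quasi-likelihood fit of 8 group means with 16 residual degrees of freedom) and 14 contrasts, each adjusted by Benjamini-Hochberg over 21286 genes. All 9 heme genes passed the filter. DESeq2 1.42.0 and limma 3.58.1 (voom) were alternatives. Libraries of 1 group differed by far more than counting noise, with a chi-square per gene of at least 34.9, so none was merged. Coordinates and exon lengths are from GENCODE M21 (GRCm38), which held 55141 of the IDs, and upstream sequences from RefSeq. The fit was also run on simulated counts drawn from its own dispersions, independent between libraries and with equal changes in every population. Such counts cannot test for shared animals, an outlying library or changes that differ by population. The heme genes, the neighbouring lists and the markers were chosen with earlier results of these data known. Named genes were all 9 heme genes, up to 4 called genes per list and genotype contrast, and the 3 closest genes by correlation for Cpox, Hmox1, Fech and Alas1. A few genes that these lists or rules would name are not reported here, and list counts leave them out.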

Additional observations from a re-analysis of the deposited data

How the results depend on the processing

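The lower mean level of Cpox stayed called in all 32 alternatives (-0.93 to -0.57) and that of Hmox1 in 24 of 32. Of the 54 single-gene genotype contrasts and mean effects (6 for each gene, WT against DKO), no called value changed sign, and 50 of 54 kept their side of the threshold throughout; of the 63 WT results 39 did. The number of heme genes called moved as follows, and the cause was not tested.

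In NKp46 it was 1 in place of 0 with no expression filter, with DESeq2, with limma voom, with only the groups compared and with the replicate block as a random effect. For any WT difference it was 1 with no filter, 4 with DESeq2 and 1 with only the groups compared. For ILC1 against NKp46 it was 1 with no filter, voom, the replicate block within genotype and the random effect, 0 with only the groups compared and 3 with DESeq2, which also called Fech (-0.95, adjusted p = 0.040). For ILC1 against CCR6 it was 3 with upper quartile factors, 1 with only the groups compared, 4 with no filter, 6 with RLE factors and DESeq2 and 7 with voom and the random effect, in place of 5; these last 4 also called Fech. For ILC1 against DN it was 0 with voom, only the groups compared and the random effect. For CCR6 against NKp46 it was 1 with voom, only the groups compared and the random effect. For DN against NKp46 it was 1 with DESeq2, and for CCR6 against DN it was 1 with DESeq2, voom and the random effect and 3 with only the groups compared. With the block within genotype and WT ILC1 library 2 left out, an alternative chosen after seeing the data, it was 3 for ILC1 against CCR6, 0 for ILC1 against DN, 1 for DN against NKp46 and 3 for CCR6 against DN, and the difference between the ILC1 effect on Cpox and the mean of the other 3 lost its call (1.48 ± 0.34, adjusted p = 0.051).

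Leaving out 1 library at a time gave 0 to 1 in NKp46, 1 to 3 for the mean effect, 0 to 1 for both differences of the genotype effect, 1 to 4 for any WT difference, 0 to 2 for ILC1 against NKp46, 1 to 5 for ILC1 against CCR6, 1 to 2 for ILC1 against DN, and 0 to 1 for DN against NKp46 and CCR6 against DN.

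Replicate numbers are shared between groups, so libraries of 1 number and genotype may come from 1 animal. Same-numbered libraries deviated together with correlations of -0.03 to 0.08, and no pairing was used. These correlations were not set against those of differently numbered libraries, so they cannot exclude shared animals. With shared animals the mean effects would rest on fewer independent units than 24 libraries. With the replicate block, which joins both genotypes of a number, the mean effects were -0.81 (Cpox, adjusted p = 0.0088) and -1.53 (Hmox1, adjusted p = 0.017), and 2 heme genes were called as before. The random effect, fitted with limma voom, takes the number within genotype as the block. It gave -0.68 (Cpox, adjusted p = 0.015) and -1.61 (Hmox1, adjusted p = 0.012).

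Counts over all genes moved by over 1.5 times in most contrasts: ILC1 from 225 to 11 (only the groups compared) and 752 (DESeq2), NKp46 from 885 to 529 and 1716, CCR6 from 846 to 1739, DN from 602 to 357 and 1330, and the 2 differences from 291 to 168 and 1058 and from 171 to 107 and 584. Among WT contrasts the range was 1823 to 5399 around 4113 for ILC1 against CCR6, 430 to 2627 around 1619 against DN, 487 to 3581 around 2285 against NKp46, 736 to 2550 around 1243 for CCR6 against DN, 891 to 2432 around 1327 for CCR6 against NKp46, and 338 to 1207 around 633 for DN against NKp46. List counts in the mean effect moved by at most 2 genes. The low counts of Hmox1 and Flvcr1, from 4 and 6 per library, limit their precision, and 3 libraries a group limit all contrasts.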
